A study of Mus musculus with 6 samples.

Results

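The Hippo pathway and its Tead transcription factors are described here in mouse sciatic nerve, through 9 genes chosen by name: Yap1, Wwtr1, Tead1, Tead2, Tead3, Tead4, Lats1, Lats2 and Amotl2. Every array probe annotated to 1 of these symbols was taken, which gave 17 probes, against 19057 genes with a probe of a single symbol on the array. Nerves were taken at postnatal day 14 from Dicer mutants that carry P0-Cre (3 arrays) and from control littermates (3 arrays). The genotype label adds "F or N" after Dicer without explaining it, so the Dicer alleles of a mutant array are not known here, nor which cells had lost Dicer. Dicer cuts microRNA precursors to their mature form, and P0 is the main protein of peripheral myelin, made by Schwann cells. Both sexes are named for every sample. The sources used here do not say whether animals were pooled, or whether the controls carried Cre or a Dicer allele. The p-values therefore measure only how these samples spread, part of which may be technical.

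In the Hippo pathway, the kinases Stk3 and Stk4 activate the kinases Lats1 and Lats2, which phosphorylate the coactivators Yap1 and Wwtr1 (also called TAZ) and so keep them out of the nucleus. When the kinases are inactive, Yap1 and Wwtr1 enter the nucleus and bind Tead1 to Tead4, the DNA-binding partners through which they act on genes. Much of this control acts on proteins, by phosphorylation and location, and is not seen by an RNA array. In Schwann cells, Yap1, Wwtr1 and Tead1 are known for a role in sorting of axons and in myelination.

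No probe of these genes differed by as much as the 2-fold mark between mutant and control nerves, and the largest falls were on the dimmer Wwtr1 probes, -0.40 and -0.43. Of the 9 genes, 7 had a probe among the 18420 brightest of the 45281 probes, which were the probes tested. By the brightest tested probe of each, Lats2 rose, Tead4 fell, and 5 genes (Yap1, Wwtr1, Tead1, Tead2 and Amotl2) did not pass an adjusted p of 0.05 in limma. Over the whole array 39.6% of 10273 genes passed that threshold, 22.0% higher and 17.6% lower, so that 2 of 7 is no more than the background. The median absolute difference was 0.11 over the 7 genes and 0.20 over all genes tested, both on the deposited log2-like scale. Of the 10 tested probes, 1 was called higher and 3 lower, against 35.8% of all probes tested (19.9% higher and 15.9% lower), and 0 differed by 1 or more, the 2-fold mark. Tead4 and Lats2 lay so close to the brightness limit that each passed it through the group in which it was higher, so their counts are a description only.

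Every value below is a normalized signal on that scale, whose median is 8.24 on each array, and every difference is mutant minus control. On plain log2 a difference of 1 would be a doubling, but a variance-stabilising transform, which would shrink differences of dim probes, cannot be told apart from it here. Signals of different probes are not levels of RNA and are not ranked against each other. Arrays correlated at 0.992 to 0.995 within controls, 0.973 to 0.993 within mutants and 0.912 to 0.942 between groups (tested probes). The Dicer transcript, Dicer1, had 9.28, 9.10 and 9.13 in mutants and 9.29, 9.17 and 9.13 in controls on its brightest probe, with an overlap, while a dimmer probe fell by 0.20 (SE 0.063, limma adjusted p = 0.0458). Whether either probe lies in a deleted stretch is not known, so this does not check the genotype. Sox10, a Schwann lineage factor, had 13.98 in mutants and 13.94 in controls, which alone does not check the nerve label. The other tested Schwann cell markers, given below, were dimmer.

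**Figure D1:**
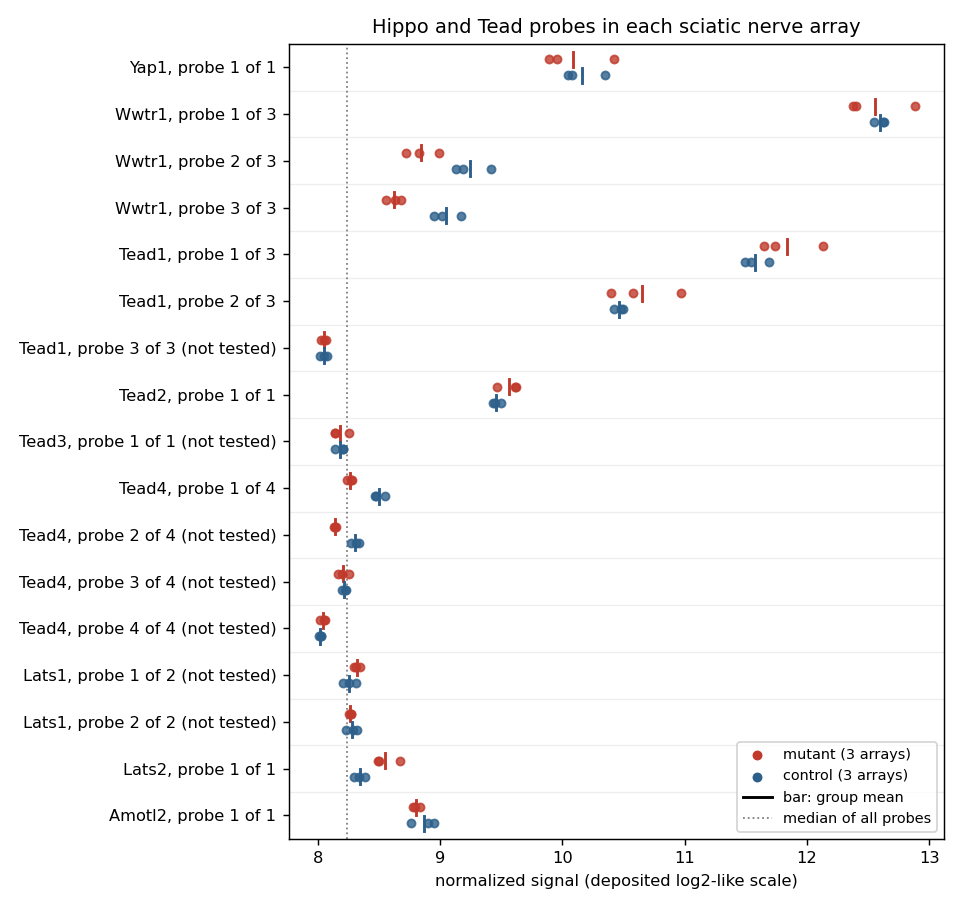
Normalized signal (x axis, deposited log2-like scale) of each of the 17 probes of the 9 genes, 1 point per array and a bar for the group mean, with the dotted line at the median of all probes, 8.24. The groups stand clear of each other for the dimmer Wwtr1 probes, the first and second Tead4 probes and Lats2, and all other probes overlap. Of the 10 tested probes 4 had no overlap, against 52.1% of all tested probes.

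Promoter sequences are shown for 4 of the 9 genes and for 4 genes around the pathway. All of them hold the 6-base core that Tead factors bind, GGAATG or its reverse complement CATTCC. This follows from the choice, as only promoters with the word are printed. Other genes around the pathway hold it too and are not printed, among them Sav1, Wwc2, Ankrd1, Axl, Egr2 and Pmp22. The word was looked for on both strands in RefSeq promoters of build GRCm38.p6, from 250 bases before to 50 after each annotated start. It occurred in 14.7% of 32851 promoters and in at least 1 promoter of 16.6% of 27025 genes. Of the 9 genes, 7 matched a promoter, and in 5 of them (Yap1, Wwtr1, Tead3, Lats2 and Amotl2) it held the word. In the gene lists described below, counting genes with a promoter, 4 of 17 upstream, 3 of 8 inhibitor and 3 of 5 cofactor genes held it. So did 6 of 15 targets and 2 of 3 Schwann cell genes. The word of Lats2 and 1 of those of Tead3 begin just after the start, and a further promoter of Tead3 holds it at base -182; these are not printed. The 100 bases around the word, 5′ to 3′ on the gene's strand, carry it in capitals:

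Yap1 (chr9:8004685-8004784, minus strand): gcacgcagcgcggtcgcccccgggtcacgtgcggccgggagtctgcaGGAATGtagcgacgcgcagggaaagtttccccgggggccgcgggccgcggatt

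Wwtr1 (chr3:57575994-57576093, minus strand): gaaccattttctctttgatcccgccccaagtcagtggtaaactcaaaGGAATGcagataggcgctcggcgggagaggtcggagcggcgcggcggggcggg

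Tead3 (chr17:28350671-28350770, minus strand): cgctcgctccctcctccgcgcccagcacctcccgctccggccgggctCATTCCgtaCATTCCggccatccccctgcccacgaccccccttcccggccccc

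Amotl2 (chr9:102717692-102717791, plus strand): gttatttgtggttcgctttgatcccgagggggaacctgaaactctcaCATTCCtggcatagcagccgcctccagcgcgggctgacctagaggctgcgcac

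Vgll3 (chr16:65815079-65815178, plus strand): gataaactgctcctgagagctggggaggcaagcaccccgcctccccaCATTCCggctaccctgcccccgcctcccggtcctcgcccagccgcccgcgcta

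Vgll4 (chr6:114969233-114969332, minus strand): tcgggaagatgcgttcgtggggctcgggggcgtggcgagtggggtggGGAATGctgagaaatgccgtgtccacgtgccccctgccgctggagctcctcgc

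Ccn1 (chr3:145650036-145650135, minus strand): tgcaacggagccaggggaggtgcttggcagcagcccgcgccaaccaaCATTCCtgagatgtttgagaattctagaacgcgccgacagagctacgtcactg

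Ptpn14 (chr1:189728075-189728174, plus strand): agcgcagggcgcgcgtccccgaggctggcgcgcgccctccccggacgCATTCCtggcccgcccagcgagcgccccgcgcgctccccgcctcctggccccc

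The Tead3 stretch holds the word at 2 places, and the others hold it once. Counted from the annotated start, the word begins at base -141 in Yap1, -123 and -114 in Tead3, -65 in Amotl2, -63 in Vgll3 and -103 in Ccn1. These matches describe the letters of the windows only. They are not binding sites, and the arrays do not measure binding.

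Yap1, the coactivator that gives the pathway its readout, was read by 1 probe. It had 9.89, 9.96 and 10.42 in mutant replicates 1 to 3 and 10.08, 10.05 and 10.35 in controls 1 to 3. The groups overlapped, with the third array high in both. The means were 10.09 ± 0.289 in mutants and 10.16 ± 0.165 in controls (SD, n = 3 each). Mutants thus differed from controls by -0.069 (SE 0.156, limma adjusted p = 0.769). The 95% interval of the difference, not adjusted for the number of probes, ran from -0.44 to 0.30. A change within that range, in either direction, is therefore not excluded.

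Wwtr1, the paralog of Yap1, was read by 3 probes that did not give the same call. The brightest (ILMN_1219016) had 12.88, 12.40 and 12.38 in mutants and 12.62, 12.55 and 12.63 in controls. Mutant replicate 1 lay above all controls and the other mutants below them. The difference was -0.048 (SE 0.136, limma adjusted p = 0.818), with an interval from -0.37 to 0.28. Without mutant replicate 1 this probe was called lower, at -0.21 (limma adjusted p = 0.0201).

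The dimmer Wwtr1 probes both fell, with every mutant array below every control array. ILMN_2732998 had 8.83, 8.72 and 8.99 in mutants and 9.19, 9.42 and 9.13 in controls. It differed by -0.40 (SE 0.102, limma adjusted p = 0.0227). The call did not hold with the replicate number as a block (adjusted p = 0.0542), when all probes were tested (0.055), or without mutant replicate 2 (0.0726), control replicate 1 (0.0584) or control replicate 2 (0.0639). ILMN_2732997 had 8.63, 8.56 and 8.68 in mutants and 9.02, 9.17 and 8.95 in controls. Its difference of -0.43 (SE 0.072, limma adjusted p = 0.00462) passed without any single array (0.00475 to 0.0212) and with the block (0.0177). All 3 probes carry the same transcript accession in the annotation, and where on the transcript each lies is not known here. The intervals of the dim probes, -0.65 to -0.16 and -0.60 to -0.25, overlap that of the bright one, and the difference between probes was not tested.

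Among the DNA-binding partners, Tead1, reported as the main Tead of Schwann cells, was read by 2 tested probes. The brightest (ILMN_1252402) had 12.13, 11.65 and 11.74 in mutants and 11.69, 11.49 and 11.54 in controls. Mutant replicate 1 was the highest, and the lowest mutant array lay within the controls. The difference was 0.27 (SE 0.129, limma adjusted p = 0.159), with an interval from -0.043 to 0.58, and with the replicate block the adjusted p was 0.0532. A second probe had 10.97, 10.40 and 10.58 in mutants and 10.42, 10.48 and 10.50 in controls, and differed by 0.18 (SE 0.140, adjusted p = 0.359). Without mutant replicate 1 these differences were 0.12 and 0.021. The third probe lay between 8.02 and 8.08 on all arrays, below the brightness filter.

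Tead2 had 9.47, 9.62 and 9.61 in mutants and 9.43, 9.50 and 9.45 in controls on its single probe. The highest control lay above the lowest mutant, and the difference was 0.11 (SE 0.060, limma adjusted p = 0.212), with an interval from -0.036 to 0.25. With array weights Tead2 was called, at 0.15 (adjusted p = 0.0154). Tead3 lay between 8.14 and 8.26 on every array, under the median of all probes in all but mutant replicate 3, and was not among the tested probes. When all probes were tested it differed by -0.0076, with an interval from -0.11 to 0.092 (limma adjusted p = 0.953).

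Tead4, best known from the trophectoderm of the embryo and from muscle, was dim on all 4 of its probes. The brightest (ILMN_3157399) passed the filter, with a mean of 8.38 over all arrays, close to the lowest mean of a tested probe, 8.34. It had 8.28, 8.27 and 8.24 in mutants and 8.55, 8.48 and 8.47 in controls, with all mutants below all controls. The fall of 0.24 (SE 0.050, limma adjusted p = 0.0108) passed with the block (0.0294), without the filter (0.00443) and without any single array (0.0114 to 0.0488). The mutant mean, 8.26, lay under that lowest tested mean and the control mean, 8.50, over it, so the probe was tested because of its controls. Of these fits only that without the filter is free of this choice, and the others are a description only. The second probe (ILMN_2599986), annotated to the same transcript record, was not tested because of its brightness. It had 8.14, 8.13 and 8.15 in mutants and 8.34, 8.31 and 8.27 in controls. When all probes were tested, where 14.1% were called and 6.15% were called lower, this second probe had -0.17 (limma adjusted p = 0.00655). The other Tead4 probes, annotated to another transcript record, differed by -0.0026 and 0.023 and lay between 8.01 and 8.26.

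Skeletal muscle RNA was present in these nerves and varied between arrays, and its part in the Tead4 difference was not tested. The mean signal of 5 muscle markers (Acta1, Ckm, Myh4, Myh1 and Tnnt3) was 9.42 to 11.3 in mutants and 11.3 to 12.5 in controls, with an overlap. Myh1 was the 1 of the 5 that was called, and it fell. Mutant replicate 3, with the least muscle signal, had 8.24 on the brightest Tead4 probe, and control replicate 2, with the most, had 8.48, between the other controls. Mutant replicate 1 had a muscle signal of 11.34, between those of control replicates 1 (11.37) and 3 (11.31). The match holds for the mean only: on Myh1 mutant replicate 1 had 8.78, against 9.35 and 9.27 in those controls. On the brightest Tead4 probe it had 8.28, against 8.55 and 8.47. In whole nerve, fewer cells of a type and less RNA per cell cannot be told apart.

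The Lats kinases restrain Yap1 and Wwtr1. Lats2, which is itself a target of Yap1 and Wwtr1, had 8.67, 8.50 and 8.49 in mutants and 8.39, 8.34 and 8.30 in controls. All mutants lay above all controls, near the low end of the scale, and Lats2 rose by 0.21 (SE 0.065, limma adjusted p = 0.0460). This call was lost in each fit that left out an array, with adjusted p from 0.0509 without mutant replicate 3 to 0.134 without control replicate 3. It was also lost when all probes were tested (0.0609), and was kept with the block (0.0480). Lats1 had 8.21 to 8.35 on its brighter probe and 8.23 to 8.32 on the other, too dim for the test, with differences of 0.062 and -0.012.

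Amotl2, an angiomotin relative that holds Yap1 in the cytoplasm and at junctions and is also a target of the pathway, had 8.84, 8.78 and 8.80 in mutants. Controls had 8.90, 8.76 and 8.95. The mutant arrays lay within the range of the controls, and the difference was -0.062 (SE 0.063, limma adjusted p = 0.486), with an interval from -0.21 to 0.088. Without single arrays the Amotl2 difference ran from -0.11 to -0.024, and it was not called in any of these fits.

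**Figure D2:**
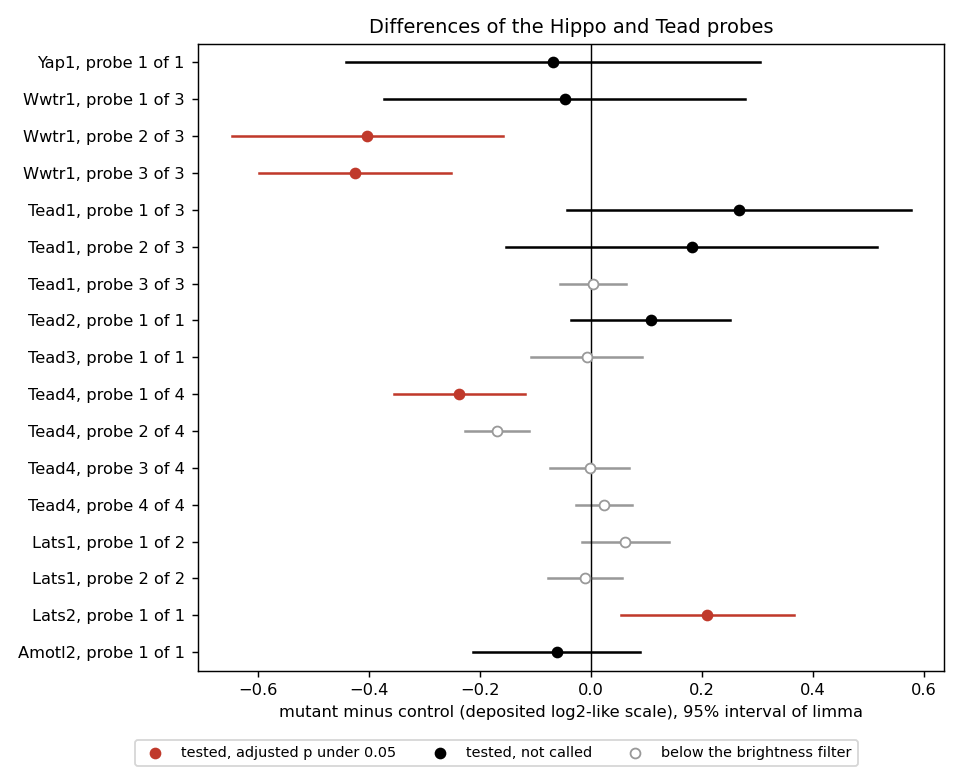
Difference, mutant minus control (x axis, deposited log2-like scale), of each probe of the 9 genes, with bars for limma's 95% interval. Red marks tested probes with an adjusted p under 0.05, black the other tested probes and open grey points probes below the brightness filter. The 4 called probes are 2 of Wwtr1, 1 of Tead4 and 1 of Lats2, and all points lie between -0.43 and 0.27.

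Of the tested genes outside the 9, Rock1, Abat and Marchf7 had the pattern most like that of Tead1, whose brightest probe had the largest absolute difference of the members. Likeness was the root mean square difference over the 6 arrays after each gene was centred on its mean, which was 0.024 for Rock1, 0.032 for Abat and 0.039 for Marchf7. Rock1 had 9.79, 9.34 and 9.40 in mutants and 9.40, 9.19 and 9.19 in controls. In all of them mutant replicate 1 was the highest array, as in Tead1, and none was called (limma adjusted p from 0.119 to 0.196).

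Around the members stand the genes that feed the pathway. Of 21 upstream regulators and parts of the core kinase complex, 19 had a probe and 14 were tested, of which 4 rose, 3 fell and 7 were not called, with a median of 0.043 against 0.011 over all genes. Over all genes 22.0% rose and 17.6% fell. Rassf1, a scaffold that binds the Hippo kinases, rose from 10.79 ± 0.0487 to 11.49 ± 0.101 (difference 0.70, SE 0.067, limma adjusted p = 3.91e-04). Map4k4, a kinase that can act on Lats in parallel to Stk3 and Stk4, rose by 0.67 (SE 0.082), and a second probe of it gave 0.75. Sav1, the scaffold of the core kinases, rose from 10.46 ± 0.0938 to 10.96 ± 0.189, a difference of 0.50 (SE 0.104), and Frmd6, a membrane-bound activator, by 0.46 (SE 0.097). Stk4 itself, with 10.11 in mutants and 9.95 in controls, was not called (difference 0.16, limma adjusted p = 0.22).

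Ptpn14, a phosphatase that retains Yap1 in the cytoplasm and is also counted among the targets below, fell by 0.53 (SE 0.116, limma adjusted p = 0.0128). It had 8.64, 8.51 and 8.56 in mutants and 9.06, 9.35 and 8.89 in controls, with no overlap. The junction protein gene Tjp1 fell by 0.33 (SE 0.057). The kinase gene Taok3 fell by 0.32 on its brightest probe, while another was not called (adjusted p = 0.345). Leaving out mutant replicate 2 ended the first call (0.0503), as did leaving out control replicate 1 (0.0682) or control replicate 2 (0.0636).

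A list of inhibitors of Lats and of Hippo signalling held 10 genes, of which 7 were tested. In this list 2 rose and 5 were not called, 28.6% called against 39.6% of all genes, with a median of 0.071. Stk38 and Stk38l in this list are kinases related to Lats and not inhibitors, and neither was called. Both are counted in that share and median, and the median is the value of Stk38l itself. The share therefore does not describe inhibitors alone and is not read as a shortfall. Limd1, an adaptor that binds and restrains Lats, had 11.04, 10.98 and 10.93 in mutants and 10.29, 10.23 and 10.19 in controls. It rose by 0.75 (SE 0.056, limma adjusted p = 1.44e-04). Ppp2r1a, the scaffold subunit of a phosphatase that opposes the Hippo kinases among many other roles, rose by 0.60 (SE 0.058). Wtip, related to Limd1, differed by -0.088 (limma adjusted p = 0.294).

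Among the Tead cofactors, Vgll3 was higher and Vgll4 lower in mutants. Of 8 cofactor genes, 3 were tested, and the third, Ncoa3, was not called. Vgll3, a vestigial-like protein that binds Tead factors, had 12.39, 12.03 and 12.00 in mutants and 10.91, 10.80 and 10.86 in controls. The groups stood far apart, and Vgll3 rose by 1.28 (SE 0.109, limma adjusted p = 2.39e-04), past the 2-fold mark, which 5.57% of all genes passed. A dimmer Vgll3 probe rose by 0.59 (limma adjusted p = 0.00373). Vgll4, which competes with Yap1 for Tead factors and represses their targets, had 9.02, 9.07 and 9.34 in mutants and 9.63, 9.47 and 9.52 in controls. It fell by 0.40 (SE 0.096, limma adjusted p = 0.0187), a call lost without mutant replicate 2 (0.0651), control replicate 1 (0.0734) or control replicate 3 (0.0566).

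**Figure D3:**
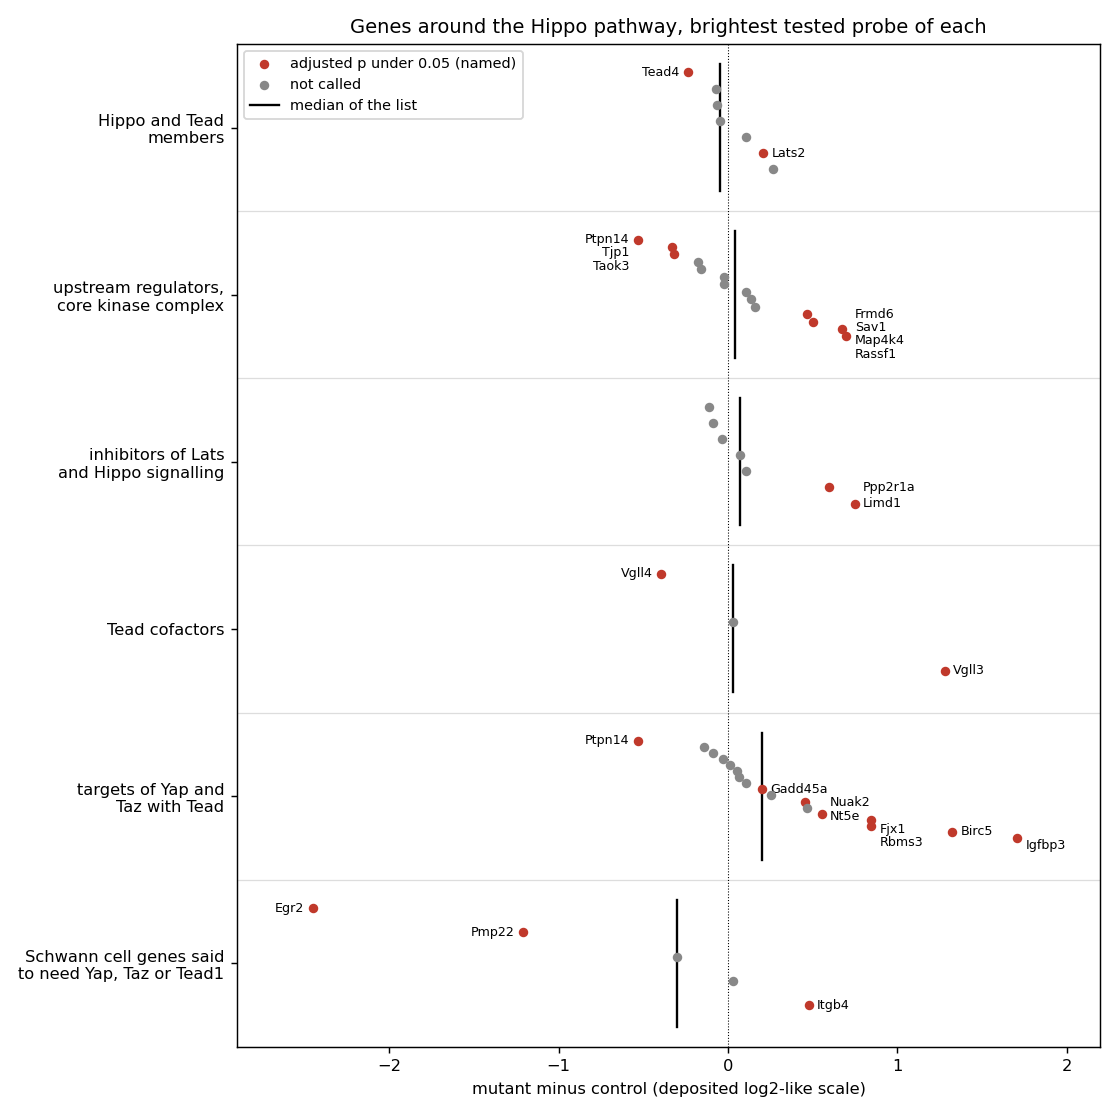
Difference, mutant minus control (x axis, deposited log2-like scale), of the brightest tested probe of each gene in 6 groups, with a black bar for each group's median. Red named points passed an adjusted p of 0.05; the 7 tested members lie between -0.24 and 0.27, while Vgll3 and the targets Igfbp3 and Birc5 lie beyond 1.

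Targets through which Yap1 and Wwtr1 with Tead factors are usually read gave a mixed picture. Of 22 such genes 17 were tested, of which 7 rose, 1 fell and 9 were not called, against 22.0% higher and 17.6% lower over all genes. The median was 0.20. Igfbp3, a binding protein of insulin-like growth factors, had 11.90, 11.75 and 11.54 in mutants and 10.19, 10.14 and 9.74 in controls. It rose by 1.71 (SE 0.145, limma adjusted p = 2.33e-04). Birc5, the survivin gene, rose by 1.33 (SE 0.141, adjusted p = 6.35e-04), with 10.03, 10.57 and 10.49 in mutants and 9.06, 9.09 and 8.98 in controls. It is also a gene of dividing cells, and all 4 measured markers of dividing cells, Birc5 included, were called higher (mean signal 10.47 to 10.52 in mutants and 8.95 to 8.99 in controls). The part of cell division in the Birc5 difference was not tested.

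The RNA-binding protein gene Rbms3 rose by 0.84 (SE 0.067, limma adjusted p = 1.77e-04), and each of its 5 tested probes was called higher. Fjx1, a secreted kinase related to Four-jointed of flies, rose by 0.84 (SE 0.071), from 9.28 ± 0.0867 to 10.12 ± 0.0870. Nt5e, an enzyme that makes adenosine, rose by 0.55 and the kinase gene Nuak2 by 0.45. The stress gene Gadd45a rose by 0.20, a call (adjusted p = 0.0343) lost with the replicate block (0.0811) and in 5 of the 6 fits without an array, all but that without mutant replicate 1. The Nt5e call was lost without control replicate 1 (0.0514) or 3 (0.0526). Second probes of Nt5e and Gadd45a were not called, with differences of 0.27 (limma adjusted p = 0.0972) and 0.073 (0.434). Ptpn14 was the target that fell.

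The targets most often used as reporters of the pathway were not called by their brightest probes. Ccn2 had 11.40, 11.20 and 10.77 in mutants and 11.28, 11.42 and 10.76 in controls, which overlapped throughout, with the third array lowest in both groups. Its difference was -0.031 (SE 0.218), with a wide interval from -0.55 to 0.49. Ccn1 differed by 0.066 (SE 0.107, limma adjusted p = 0.673), while the dimmest of its 3 probes rose by 0.30 (adjusted p = 0.014). Its middle probe differed by 0.24 (limma adjusted p = 0.0792) and the mean of its probes by 0.20 (0.0587), neither called. Ankrd1 was dim and differed by 0.053. Axl, a receptor kinase gene, had 14.09, 13.59 and 13.66 in mutants and 13.35, 13.46 and 13.14 in controls, with no overlap (52.1% of all tested probes had none). Its difference of 0.46 (interval 0.11 to 0.82) had an adjusted p of 0.0511 in limma, just short of being called. It was called with the replicate block (0.0444), among the 10000 brightest probes (0.0422), with an intensity trend (0.0487), with array weights (0.27, adjusted p = 0.0286) and with the mean of a gene's probes (0.0474). It was also called without mutant replicate 1 (0.31, adjusted p = 0.039) or 2 (0.0493), while without the other arrays singly or without the filter the adjusted p ran from 0.0627 to 0.154.

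Fibroblasts also express several of these targets, and their markers leaned higher in mutants too. The mean signal of 5 fibroblast markers (Dcn, Lum, Col1a1, Col3a1 and Pdgfra) was 14.1 to 14.5 in mutants and 13.7 to 13.9 in controls. All 5 had a positive difference, with a median of 0.33 against 0.011 over all genes, and 2 of the 5 were called, both higher. For 6 tested endothelial markers the ranges of the mean, 9.92 to 10.1 and 9.89 to 10.2, overlapped. The part of fibroblast RNA in the target list was not tested.

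**Figure D4:**
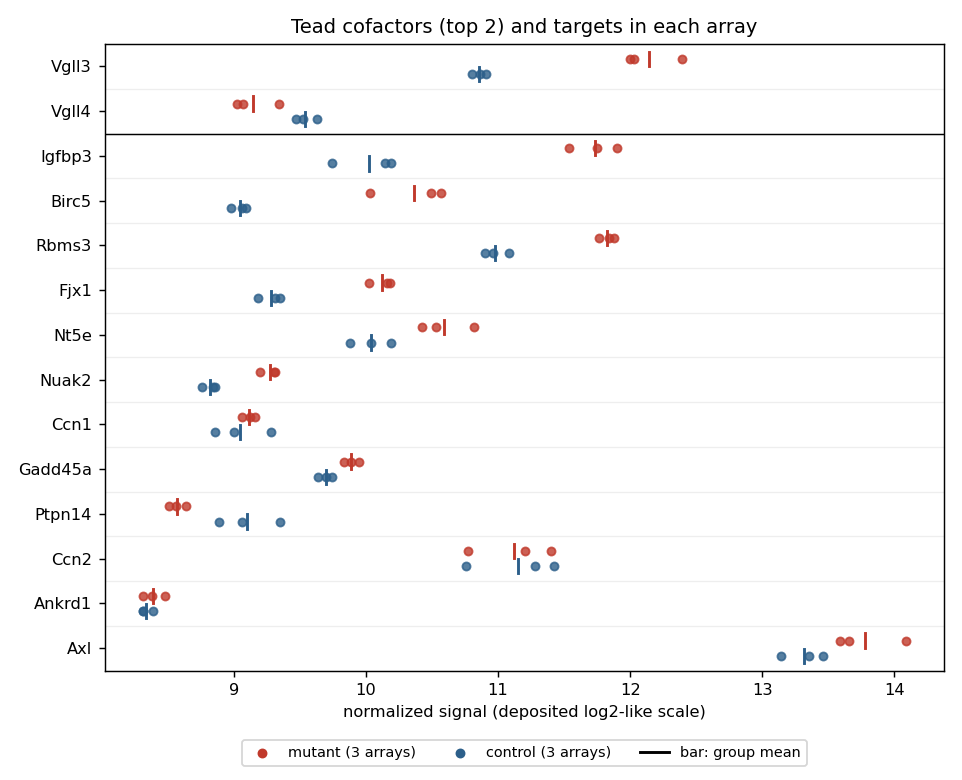
Normalized signal (x axis, deposited log2-like scale) of 2 Tead cofactors, above the line, and 12 targets, 1 point per array and a bar for the group mean. Vgll3, Igfbp3, Birc5, Rbms3 and Fjx1 stand clear to the right in mutants, Vgll4 and Ptpn14 to the left, and Ccn1, Ccn2 and Ankrd1 overlap.

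Schwann cell genes reported to need Yap1, Wwtr1 or Tead1 did not move as 1 group. Of 5 tested, 2 fell, 1 rose and 2 were not called, where 17.6% of all genes fell and 22.0% rose. The median was -0.30, and -0.45 without mutant replicate 1 or -0.19 without mutant replicate 2. Egr2, the master regulator of myelination, fell by 2.45 and Pmp22, a myelin protein gene, fell by 1.21 on its brightest probe and fell by 2.54 on the other. Itgb4, the beta subunit of a laminin receptor of Schwann cells and perineurial cells, rose by 0.48 (SE 0.073, limma adjusted p = 0.00309). Its partner Itga6 differed by 0.028 (SE 0.117) with an interval from -0.25 to 0.31. Dag1, the dystroglycan gene, differed by -0.30 (adjusted p = 0.128) on its brightest probe, which was called lower without mutant replicate 1 (difference -0.45, adjusted p = 0.00185). Its other probe fell by 0.39 (0.0393). Of 4 tested Schwann cell markers, S100b fell by 1.19 and was the 1 called. Sox10 (0.035), Erbb3 (0.042) and Mpzl1 (-0.031) differed little, and Erbb3 and Mpzl1 were dim. The mean signal of the 4 was 9.88 to 9.98 in mutants and 10.2 to 10.3 in controls, a gap that rests on S100b. The median difference of the 4 was 0.0021.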

How the data were processed

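Each of 6 total RNA samples was measured on 1 Illumina bead array (Mouse WG-6 v2). The authors deposited normalized log2-like values. Limma and RMA are named in the design text, per the labels, and lumi 1.8.3 in the submitters' processing notes. The sources used here do not name a background correction. The 6 columns hold the same distribution, so a shift of all genes would not be seen.

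The design text kept 18420 of 45281 probes by present calls. Here the 18420 brightest by the mean of the 6 arrays were tested instead, and 26861 were left out. Probes were named from the platform annotation: 34885 had 1 symbol, 18 several and 10378 none. The brightest tested probe stood for a gene. The comparison used limma 3.58.1 (R 4.3.3, 2-sided, 4 residual and 2.63 prior degrees of freedom), with Benjamini-Hochberg adjustment over all probes tested, and called at an adjusted p under 0.05. The steps were tested on simulated data. An exact permutation test of 3 against 3 arrays cannot go below 0.1. The number of arrays limits the precision.

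Titles give both groups the replicate numbers 1 to 3. Deviations from the group means correlated between same-numbered arrays at 0.165, 0.155 and 0.224, and between other arrays at -0.157 to 0.0283. By this check of the data, not by a label, the numbers may pair the samples. The check is weak, because deviations from a mean of 3 arrays depend on each other. The main fits therefore did not use the numbers, and a replicate block was an alternative. The blocked value is given where it changed a call.

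The members and the 5 gene lists were chosen with earlier results of these data known. Named genes were all members, up to 4 called genes in each direction of each list (the 2 brightest where under 3 were called), and the 3 genes most like the member with the largest difference. Nt5e, Nuak2, Gadd45a, Ccn1, Ccn2, Ankrd1, Axl, Stk4, Ncoa3, Stk38, Stk38l, Itga6 and Dag1 are list genes named after their values were seen.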

Additional observations from a re-analysis of the deposited data

How the results depend on the processing

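Of the 21 pathway genes called by the brightest tested probe, 17 were called under every alternative that tested them, other than the 2-fold rule, and 4 (Taok3, Vgll4, Nt5e and Gadd45a) were not. The 2-fold rule was applied to the members and to all probes only. The member calls were less steady. The count of members called higher was 1, and 0 without the filter, with the 10000 brightest probes, under the 2-fold rule and in every fit without an array (0 to 0), but 2 with array weights. The count called lower was 1, and 0 with the 10000 brightest probes and under the 2-fold rule, 2 with array weights and with the mean of a gene's probes, and 1 to 2 without single arrays. Over all tested probes, 378 were higher and 450 lower under the 2-fold rule, 1937 lower among the 10000 brightest, and 4483 lower with array weights. Without single arrays 2557 to 4044 were higher and 2041 to 3458 lower, against 3664 and 2932. In these fits the group left with 2 arrays is taken to vary like the other.

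Of the lists, the targets had 0 lower among the 10000 brightest probes, with a median of 0.46, and of 0.066 without the filter. The upstream list had 1 lower among the 10000 brightest, with a median of 0.15. The median of the cofactors was 0.44 among these and -0.017 without the filter, and that of the Schwann cell list was -0.50 with array weights. Without single arrays, cofactors called lower numbered 0 to 1, and medians ran from -0.042 to 0.094 (upstream) and 0.019 to 0.13 (inhibitors).

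Directions reversed in uncalled values. With array weights the second Tead1 probe had -0.016, Ccn1 -0.021 and Itga6 -0.19, and Itga6 had -0.034 as a mean of its probes. Without single arrays Yap1 ran from -0.23 to 0.032, the brightest Wwtr1 probe from -0.21 to 0.039, Ccn1 from -0.027 to 0.18, Ccn2 from -0.23 to 0.15 and Itga6 from -0.045 to 0.15. The possible pairing, used as a replicate block, changed the calls of the second Wwtr1 probe (-0.40), Axl (0.46) and Gadd45a (0.20). No other call changed for a member's probe, or for the brightest probe of the called pathway genes, Wtip, Ccn1, Ccn2, Ankrd1, Dag1 and Itga6. Calls with the block were not compared for the other genes named. Centring the arrays on their medians changed nothing. Signals close to 8.24 limit what can be seen of Tead3, Tead4, Lats1 and Lats2. The cause of these changes was not tested.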

Other observations

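Yap1 and Ccn2, picked for this after their values were seen, had the same extreme array number in both groups. The share of all genes with such a pattern was not counted, and the pattern was not tested. Yap1 was highest in the third array of each group, with 10.42 in mutants and 10.35 in controls, and lay between 9.89 and 10.08 in the other arrays. Ccn2 was lowest in the third array of each group on both of its probes, with 10.77 and 10.76 on the brighter and 9.22 and 9.30 on the dimmer. The sources used here do not say what same-numbered arrays share.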
